A study of Mus musculus with 6 samples.

Results

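The genes described here are 10 members of the TGF-beta and activin pathway, chosen by name among the 55421 genes of the deposited table. They comprise 4 ligand genes (Tgfb1, Tgfb2, Tgfb3 and Inhba), 4 receptor genes (Tgfbr1, Tgfbr2, Tgfbr3 and Acvr2b) and 2 genes of extracellular regulators (Fst and Ltbp1). All 10 were found, and all 10 passed the expression filter on the counts as deposited. With counts put on the scale of read pairs, Acvr2b did not pass it and the other 9 did. RNA-seq covered 3 control libraries and 3 miR-322/-503 libraries, all from mouse myoblasts collected on day 4 of differentiation. Both groups were stable derivatives of C2C12, an established line of mouse myoblasts that form myotubes after serum withdrawal. Both lines carried a GFP transgene with 200 CUG repeats in its 3′ untranslated region, a myoblast model of myotonic dystrophy type 1 (DM1). The control line also carried the empty vector, and the other line overexpressed the microRNAs miR-322 and miR-503. Each group came from 1 drug-selected line, and changes acquired by a line during selection and changes due to the microRNAs cannot be told apart. The sources used here do not say whether a line was a pool or a clone, and p-values measure the spread between these libraries.

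TGF-beta ligands are secreted as latent dimers, which latent TGF-beta binding proteins such as Ltbp1 tether to the extracellular matrix until they are released. The active ligand binds the type II receptor Tgfbr2, which phosphorylates the type I receptor Tgfbr1, and Tgfbr1 phosphorylates Smad2 and Smad3. Betaglycan, the product of Tgfbr3, presents ligands to the signaling receptors. Inhba encodes the subunit of activin A, which signals through activin type II receptors such as Acvr2b, and follistatin (Fst) binds and neutralizes activins and myostatin. In muscle, TGF-beta and myostatin are known to restrain myoblast differentiation, and follistatin is known to favor muscle growth.

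The overexpressed microRNAs recognize messenger RNAs through their seed, bases 2 to 8. The mature strands are shown, from RefSeq on GRCm38.p6 and with the seed in capitals, because the 3′ untranslated regions of the 10 genes were searched for its complement. Mir322 lies at chrX:53054306-53054327 and Mir503 at chrX:53054027-53054049 (coordinates of the mature strands, minus strand). Their seeds differ in the last base only.
miR-322-5p: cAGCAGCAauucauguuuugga
miR-503-5p: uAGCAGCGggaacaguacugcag

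The heptamer TGCTGCT, the complement of the miR-322 seed, was found in the longest annotated 3′ untranslated region of 5 of the 10 genes, and CGCTGCT, the complement of the miR-503 seed, in none. Among 13416 tested genes with such a region, 24.4% held TGCTGCT and 4.87% held CGCTGCT. The heptamers overlap in GCTGCT, and only the transcribed strand was searched. All 4 receptor genes held TGCTGCT, and among the other members Tgfb3 alone did. The 6 matches are shown with their surroundings, 30 bases each, with the match in capitals and coordinates on GRCm38 with the strand of the gene.
Tgfb3, chr12:86057721-86057750, minus strand: gccaccacagacTGCTGCTccttggaaaac
Tgfbr1, chr4:47412236-47412265, plus strand: gggtcttctcacTGCTGCTggagttaggtg
Tgfbr2, chr9:116089365-116089394, minus strand: tttttgtcgctcTGCTGCTgggtcttccag
Tgfbr2, chr9:116086236-116086265, minus strand: ctggtagtaagtTGCTGCTttgcataaagg
Tgfbr3, chr5:107109314-107109343, minus strand: tttttttttttaTGCTGCTttgtccaggtg
Acvr2b, chr9:119434668-119434697, plus strand: gaatgttcttaaTGCTGCTgtttcgacatt

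None of the 6 matches was followed by an A, the base that extends a seed match to the strongest class of site. The region of Tgfb3 was 1035 bases long, and 18.4% of regions of a length within 20% of it held the same heptamer. For Tgfbr1, Tgfbr2, Tgfbr3 and Acvr2b, with regions of 4154, 6085, 3069 and 1534 bases, the same share was 53.2%, 64.3%, 42.8% and 24.7%. Fst, Inhba, Ltbp1, Tgfb1 and Tgfb2 held neither heptamer, in regions of 1514, 4492, 1214, 135 and 2656 bases. A match is a description of the letters and not evidence that the microRNA binds there.

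The libraries held between 73532084 and 92157388 estimated counts. Each read pair contributed about 4 of these counts, and the depth thus corresponded to between 18383021 and 23039347 read pairs. The precursor genes Mir322 and Mir503 had at most 17 counts in any library, so the overexpression could not be followed in these data. All 14 muscle markers examined had more than 12 counts (3 read pairs) in at least 1 library, although Myf6 had 17, 0 and 48 counts in the control libraries. Their summed level lay between 2573 and 2724 TPM (a StringTie level that accounts for transcript length and library size) in the control and between 3426 and 3606 TPM in the miR-322/-503 libraries. The tests described next called 13.2% of all tested genes higher and 15.5% lower. By these tests, 9 of the 14 muscle markers rose and Myog, the myogenin gene, fell by 0.74 on the log2 scale (edgeR adjusted p = 0.000665). Of these 9, Myod1 lost its call in both limma fits and without any 1 of the 3 miR-322/-503 libraries, and Mymx lost it in 4 of the 6 fits without 1 library (without control replicate 1 or 3 or miR-322/-503 replicate 2 or 3). Mymk, which did not pass in edgeR (log2 fold change -0.41, adjusted p = 0.0796), was called lower by DESeq2 (adjusted p = 0.0209). Tnnt3, of fast troponin T, and Ckm, of muscle creatine kinase, had log2 fold changes of 1.04 and 0.87. Of 12 markers of other cell types, 7 had no more than 12 counts (3 read pairs) in any library, among them Ptprc of leukocytes, Pecam1 and Cdh5 of endothelium and Epcam of epithelium. Their summed level was 8.46 to 13.2 TPM in the control and 30.8 to 38.7 TPM with miR-322/-503. Hba-a1, an alpha globin gene with a near-identical copy, was the main difference, at 4.13 ± 0.835 against 26.7 ± 4.77 TPM (SD, n = 3), while the macrophage markers differed in direction. Of the 4 tested markers of other cell types, Hba-a1 was called higher and Lyz2 lower, with log2 fold changes of 2.71 and -5.83. Lyz2 stood at 1.83 ± 0.715 against 0.0241 ± 0.0417 TPM and was not tested where at least 10 counts were asked of every library. Cd68 stood at 4.22 ± 1.13 against 5.66 ± 0.568 TPM and did not pass the test (log2 fold change 0.48, edgeR adjusted p = 0.102). The part of cell composition or of the degree of differentiation in the results was not tested. In such bulk samples, fewer cells of a type and less RNA per cell cannot be told apart.

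To ask how the pathway differed between the lines, counts were compared by the quasi-likelihood test of edgeR, and p-values were adjusted (Benjamini-Hochberg) over 18140 tested genes. In the miR-322/-503 libraries, Fst, Tgfb3, Inhba and Ltbp1 fell and Tgfbr1 rose. The other 5 members, Tgfb1, Tgfb2, Tgfbr2, Tgfbr3 and Acvr2b, did not pass an adjusted p-value of 0.05. Thus 4 of 10 members were lower, where 15.5% of all tested genes were lower, and 1 of 10 was higher, where 13.2% of all tested genes were higher. With the cut-offs of the study, which also ask for a log2 fold change above 1 or below -1, Fst and Tgfb3 were called lower (5.29% of all tested genes) and no member was called higher (4.59%), so that 2 of 10 members were called where 9.87% of all tested genes were. The groups did not overlap in the 5 genes that passed and overlapped in the other 5, against 45.1% of all tested genes without overlap. The median log2 fold change of the 10 members was -0.13, and that of all tested genes was -0.01.

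**Figure D1:**
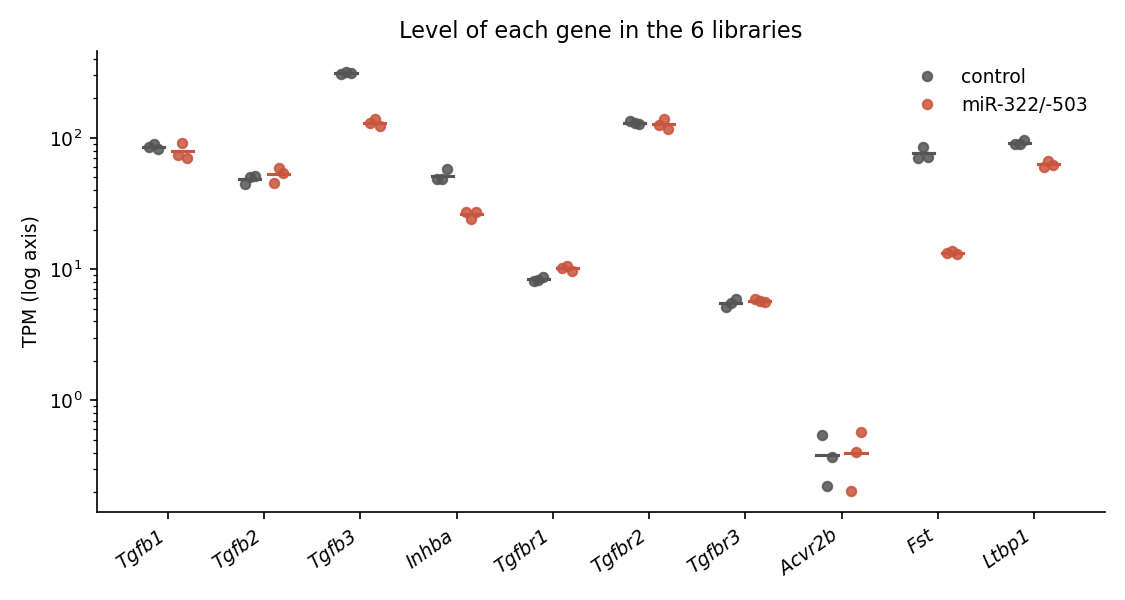
Level of the 10 genes in TPM on a log axis, with 1 point for each of the 3 control (grey) and 3 miR-322/-503 (red) libraries and a line at the group mean. The groups stand clearly apart in Tgfb3, Inhba, Fst and Ltbp1, and Acvr2b lies below 1 TPM in all 6 libraries.

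Among the ligands, Tgfb3 and Inhba fell and Tgfb1 and Tgfb2 did not pass the test. Tgfb3, the ligand gene with the highest level in both groups, lies on chromosome 12 of GRCm38 from 86056745 to 86079041. It was measured at 309, 319.6 and 313 TPM in the control libraries and at 129.8, 140.2 and 123 TPM in the miR-322/-503 libraries. Every miR-322/-503 library was thus below every control library, with a gap far wider than the spread within either group. On the count scale it fell from 559 ± 14.4 to 236 ± 10.04 CPM (counts scaled to library size, SD, n = 3), and the log2 fold change was -1.24 ± 0.06 (SE, edgeR adjusted p = 8.48e-06). Genes of the opposite strand overlap 4.82% and 7.60% of its exonic bases, but they had 373 and 25 counts in all 6 libraries together, against at least 17518 for Tgfb3 in each.

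Inhba, of the activin A subunit, lies on chromosome 13 from 16011851 to 16031621. It stood at 48.6, 48.9 and 57.6 TPM in the control and at 27.3, 23.95 and 27.1 TPM with miR-322/-503. The groups were separate, and control replicate 3 was the highest library. The log2 fold change was -0.97 ± 0.10 (SE, edgeR adjusted p = 0.000378), from 173 ± 18.3 to 88.5 ± 8.61 CPM (SD, n = 3), just inside the cut-off of -1. Without control replicate 1, control replicate 2 or miR-322/-503 replicate 3 it was -1.02, -1.01 and -1.03 and was called lower by the cut-offs of the study.

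Tgfb1, the ligand most studied in fibrosis (chromosome 7, 25687002 to 25705077), was at 85.4, 89.4 and 82.9 TPM in the control and at 74.4, 91.6 and 70.8 TPM with miR-322/-503. In Tgfb1 the miR-322/-503 libraries were more spread than the controls, and replicate 2 was above every control library. The log2 fold change was -0.11 with a 95% interval from -0.32 to 0.11 (edgeR adjusted p = 0.434), and without miR-322/-503 replicate 2 it was -0.21 (edgeR adjusted p = 0.0616). Tgfb2 (chromosome 1, 186622792 to 186705989), whose product depends most on betaglycan for receptor binding, was at 44.9, 50.02 and 51.4 TPM against 45.1, 58.8 and 54.2 TPM. These ranges overlapped as well, and the log2 fold change was 0.16 with a 95% interval from -0.11 to 0.44 (edgeR adjusted p = 0.348). Within each pair of the same replicate number Tgfb2 TPM was higher with miR-322/-503, and with the replicate block the log2 fold change was 0.16 ± 0.05 (SE, edgeR adjusted p = 0.0883), still not past the threshold. Without miR-322/-503 replicate 1 it was 0.28 (edgeR adjusted p = 0.0701). A fall of Tgfb1 or Tgfb2 of the size seen in Tgfb3 therefore lies outside both intervals.

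The makeup of the TGF-beta ligand transcripts differed accordingly. The summed level of Tgfb1, Tgfb2 and Tgfb3 was 449 ± 9.95 TPM in the control and 263 ± 24.2 TPM with miR-322/-503 (SD, n = 3). Tgfb3 made up 69.98% ± 0.354 of this sum in the control and 49.98% ± 1.93 with miR-322/-503 (SD, n = 3). Tgfb1 accounted for 19.2% ± 0.537 and 29.96% ± 1.48, and Tgfb2 for 10.9% ± 0.636 and 20.1% ± 1.87. The groups did not overlap for the sum or for any of these shares, and the two-sided exact permutation test gave p = 0.1 for each, the smallest value that 3 against 3 unpaired libraries allow. The replicate numbers were not used in this test or in the permutation tests below.

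**Figure D2:**
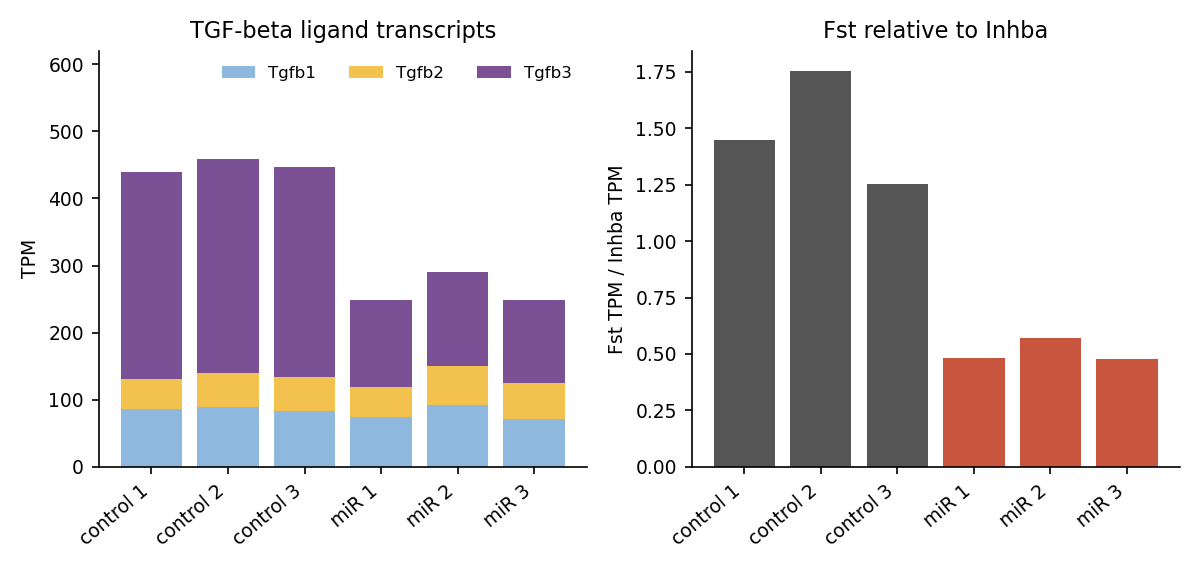
Left, TPM of Tgfb1, Tgfb2 and Tgfb3 stacked for each library, and right, the ratio of Fst TPM to Inhba TPM in each library (control grey, miR-322/-503 red). The Tgfb3 segment shrinks from 309 to 319.6 TPM in the control libraries to 123 to 140.2 TPM in the miR-322/-503 libraries, and the ratio falls below 1 in all 3 of the latter.

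Fst had the largest change of the 10 genes. It lies on chromosome 13 from 114452290 to 114458951 and encodes follistatin, the secreted antagonist of activins. Its level was 70.3, 85.9 and 72.1 TPM in the control libraries and 13.2, 13.7 and 13.0 TPM in the miR-322/-503 libraries. The lowest control library was thus several times as high as any miR-322/-503 library. On the count scale Fst fell from 83.2 ± 5.12 to 15.9 ± 0.467 CPM (SD, n = 3), 5.22-fold lower (log2 fold change -2.38 ± 0.07 SE, edgeR adjusted p = 1.31e-06). Because Fst fell more than Inhba, the ratio of antagonist to activin subunit transcripts also differed, at 1.45, 1.76 and 1.25 Fst TPM per Inhba TPM in the control and 0.484, 0.571 and 0.479 with miR-322/-503. The ratio did not overlap between the groups (two-sided exact permutation test, p = 0.1, the smallest possible).

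Ltbp1, of the binding protein that stores latent TGF-beta in the matrix, lies on chromosome 17 from 75005568 to 75392512. It was at 90.4, 89.8 and 95.6 TPM in the control and at 59.8, 67.1 and 61.9 TPM with miR-322/-503. All 3 control libraries were above all 3 miR-322/-503 libraries. It fell from 240.1 ± 10.2 CPM in the control to 166 ± 11.1 CPM (SD, n = 3), and the log2 fold change was -0.54 ± 0.07 (SE, edgeR adjusted p = 0.00117). Ltbp1 fell less than the summed ligands, with 0.205 ± 0.00903 Ltbp1 TPM per ligand TPM in the control and 0.240 ± 0.00930 with miR-322/-503 (two-sided exact permutation test over 3 against 3, p = 0.1, the smallest possible).

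Among the receptor genes, 1 rose and none fell. Tgfbr1 (chromosome 4, 47353222 to 47414931), of the type I receptor, was the only member that rose. It was at 8.18, 8.27 and 8.78 TPM in the control and at 10.3, 10.5 and 9.67 TPM with miR-322/-503, groups that did not overlap. The log2 fold change was 0.29 ± 0.08 (SE, edgeR adjusted p = 0.0292). This call was lost in part of the alternatives. Without control replicate 1, control replicate 2, miR-322/-503 replicate 2 or miR-322/-503 replicate 3 the adjusted p in edgeR was 0.0918, 0.0862, 0.0855 and 0.0833, and with limma on log2(TPM + 1) it was 0.112.

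Tgfbr2 (chromosome 9, 116084293 to 116175360), of the type II receptor, was the most highly expressed receptor gene, at 134, 129.7 and 129 TPM in the control and 126, 139.6 and 118 TPM with miR-322/-503. The miR-322/-503 libraries lay on both sides of the controls. The log2 fold change was -0.02, with a 95% interval from -0.18 to 0.13 (edgeR adjusted p = 0.845). Tgfbr2 TPM per Tgfbr1 TPM was 15.6 ± 0.872 in the control and 12.6 ± 0.592 with miR-322/-503 (SD, n = 3), without overlap.

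Tgfbr3 (chromosome 5, 107106570 to 107289629), of betaglycan, was at 5.18, 5.49 and 5.87 TPM in the control and at 5.96, 5.71 and 5.58 TPM with miR-322/-503. The ranges overlapped, and the log2 fold change of -0.15 on counts (95% interval -0.39 to 0.09, edgeR adjusted p = 0.328) had the opposite sign on the TPM scale. Acvr2b (chromosome 9, 119402118 to 119434995), of an activin type II receptor, was at 0.547, 0.224 and 0.372 TPM against 0.205, 0.405 and 0.575 TPM. It rested on 22 to 51 estimated counts a library. The 95% interval of its log2 fold change ran from -0.91 to 1.302, so neither a rise nor a fall within that range can be excluded (log2 fold change 0.19, edgeR adjusted p = 0.807).

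**Figure D3:**
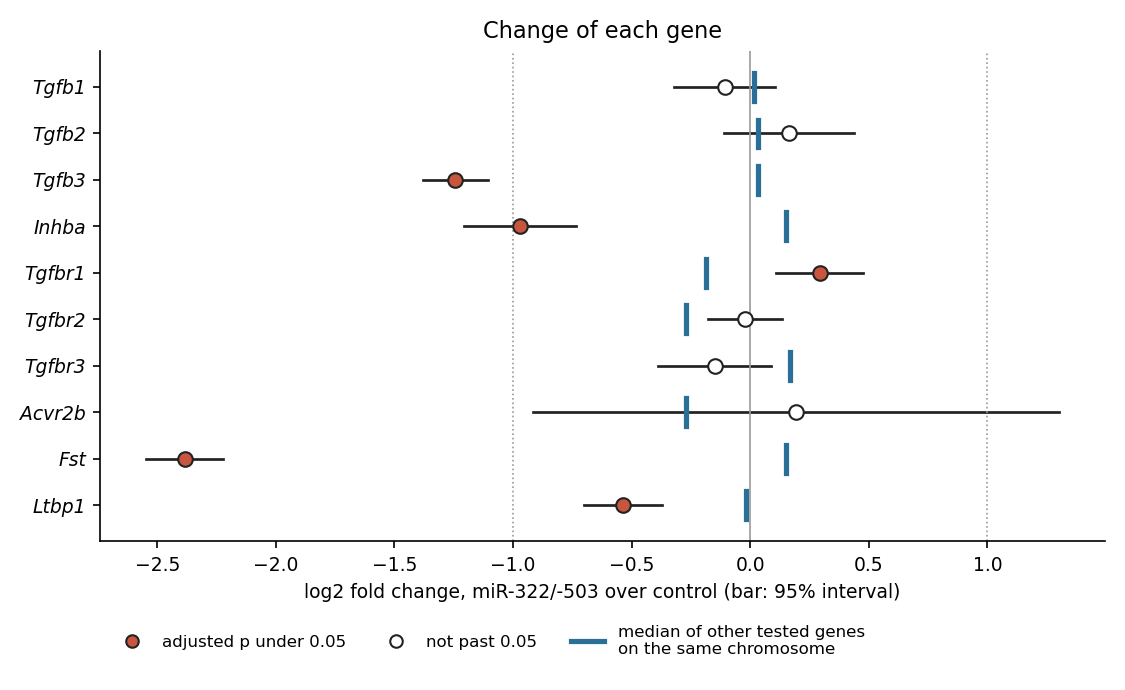
The log2 fold change of each gene (point, filled where the adjusted p in edgeR was under 0.05) with its 95% interval, and a blue bar at the median of the other tested genes on the same chromosome. Fst, Tgfb3, Inhba and Ltbp1 lie left of 0 with intervals that exclude it, Tgfbr1 lies right of 0, and dotted lines mark -1 and 1.

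Ordered by TPM, the control libraries ran Tgfb3, Tgfbr2, Ltbp1, Tgfb1, Fst, Inhba, Tgfb2, Tgfbr1, Tgfbr3 and Acvr2b, from 314 ± 5.38 to 0.381 ± 0.162 TPM (SD, n = 3). The ranges of neighbours overlapped for Tgfb1 and Fst and for Inhba and Tgfb2. Within each control library Tgfb1 was nevertheless above Fst, while the order of Inhba and Tgfb2 differed between the control libraries. With miR-322/-503 the order was Tgfb3, Tgfbr2, Tgfb1, Ltbp1, Tgfb2, Inhba, Fst, Tgfbr1, Tgfbr3 and Acvr2b, and only the ranges of Tgfb3 (131 ± 8.64 TPM) and Tgfbr2 (128 ± 10.99 TPM) overlapped. Tgfb3 was above Tgfbr2 in each miR-322/-503 library, although their ranges overlapped. Fst moved from place 5 to place 7, below both Inhba and Tgfb2.

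Genes of some chromosomes were shifted as a whole between the lines, so each member was set beside the median log2 fold change of the other tested genes on its chromosome. For Fst and Inhba on chromosome 13 that median was 0.15, for Tgfb3 on chromosome 12 it was 0.03 and for Ltbp1 on chromosome 17 it was -0.02. These 4 genes fell on chromosomes whose median lay near or above 0. Tgfbr1 on chromosome 4 rose against a median of -0.19. Tgfbr2 and Acvr2b lie on chromosome 9, where the median was -0.27 and 76.3% of tested genes were below 0, and Tgfbr2 stood 0.25 above that median.

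Among the genes whose pattern over the 6 libraries was most like that of Tgfb3 was Thbd, of thrombomodulin, at a Euclidean distance of 0.11 between log2 CPM values centred on the control mean. Its log2 fold change was -1.21. For Fst the nearest genes were Col12a1, of a fibril-associated collagen, and Sod3, of the extracellular superoxide dismutase, at distances of 0.07 and 0.12 and with log2 fold changes of -2.34 and -2.43. With 6 libraries in 2 groups, such likeness rests mainly on the size of the change.

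Other genes of the pathway were taken from lists that hold no member, and their counts stand against 13.2% higher and 15.5% lower among all tested genes. Among 4 tested ligand genes of 9 listed, Inhbb and Gdf11 rose and Inha fell. Inhbb, of the activin B subunit, was at 6.95, 6.03 and 7.40 TPM in the control and at 16.6, 16.9 and 15.9 TPM with miR-322/-503, and it rose while Inhba fell (log2 fold change 1.296 ± 0.09 SE, edgeR adjusted p = 5.82e-05). The 2 activin subunit genes thus moved in opposite directions, and the groups overlapped in neither. Gdf11, of a close relative of myostatin, had a log2 fold change of 0.39, and Inha, of the inhibin alpha subunit, of -0.56. The call of Inha was lost without control replicate 1, control replicate 2, miR-322/-503 replicate 2 or miR-322/-503 replicate 3 (adjusted p 0.0585 to 0.0693 in edgeR). Without miR-322/-503 replicate 2 the gene called lower was Gdf1 instead, which had 0 counts in the other 2 miR-322/-503 libraries and 66 in replicate 2. Mstn, of myostatin, had no counts in any library.

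Of 7 tested receptor and co-receptor genes, 4 fell and none rose, while Acvr2a, the paralog of Acvr2b, missed the threshold at a log2 fold change of 0.33 (edgeR adjusted p = 0.0587, and 0.0298 in DESeq2, 0.0379 with library totals alone and 0.0366 without control replicate 3). Acvr2a was at 7.31 ± 0.982 TPM in the control and 8.85 ± 0.223 TPM with miR-322/-503 (SD, n = 3), far above Acvr2b in both groups. Acvrl1, a type I receptor known from endothelium, had a log2 fold change of -2.08 from a low level of 1.49 ± 0.143 TPM. Acvr1b, the type I receptor of activin, fell by 0.65 on the log2 scale (edgeR adjusted p = 0.00752), and Cd109, of a TGF-beta co-receptor, by 0.36. Cd109 lies on chromosome 9, where the median of the tested genes was -0.27. The largest of the 4 falls was that of Bambi, from 0.498 ± 0.151 to 0.0504 ± 0.0441 TPM (SD, n = 3). Its log2 fold change was -3.23 (edgeR adjusted p = 0.00529). Bambi had only 9, 21 and 4 counts in the miR-322/-503 libraries and was not tested where at least 10 counts were asked of every library.

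Among 20 tested genes of latency and activation, 10 fell and 3 rose, with a median log2 fold change of -0.38. The share of higher genes was near that of all tested genes (13.2%). Mmp2, of a matrix metalloproteinase, dropped from 835 ± 34.3 to 122 ± 11.1 TPM (SD, n = 3), with a log2 fold change of -2.76 (edgeR adjusted p = 6.56e-07). Tll1, of a tolloid-like protease, and Pcsk6, of a proprotein convertase, had log2 fold changes of -3.38 and -2.76. Thrombospondin 1 (Thbs1), an activator of latent TGF-beta, had a log2 fold change of -1.45, and the other latent binding protein genes Ltbp2, Ltbp3 and Ltbp4 had values of -1.32, -0.46 and -0.61, so all 4 Ltbp genes fell. The 3 that rose were Itgb8 (2.06) and Itgb6 (1.197), of integrin subunits that release TGF-beta from its latent form, and Plau (1.45), of urokinase. None of the other integrin subunit genes of the list passed as higher in this test. Itgb5 fell (-0.36, edgeR adjusted p = 0.00369), and Itgb3 (-0.18), Itgav (-0.40) and Itgb1 (0.25) did not pass. Thbs1, Ltbp2, Ltbp3, Ltbp4, Itgb8, Itgb6, Plau, Itgb5, Itgb3, Itgav and Itgb1 were named after their values were seen.

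Of 7 tested extracellular antagonist genes, 5 fell and none passed as higher, with a median of -1.24. That median was the value of Bgn, of the proteoglycan biglycan. The list holds several matrix proteoglycan genes and was chosen with earlier results of these data known, so its direction is no independent evidence. The smallest of the 5 falls, that of Dcn, of the proteoglycan decorin (log2 fold change -0.22), lost its call with library totals alone and in 5 of the 6 fits without 1 library, all but that without control replicate 1. Fstl3, of a follistatin relative that also binds activin, was at 147, 157 and 156 TPM in the control and at 57.7, 66.5 and 63.6 TPM with miR-322/-503 (log2 fold change -1.27 ± 0.07 SE, edgeR adjusted p = 1.73e-05). Both follistatin-type genes were thus lower. Fmod and Aspn, of small proteoglycans that bind TGF-beta, had log2 fold changes of -4.50 and -3.61. Wfikkn2 was called higher only without control replicate 2, with a mean level under 0.1 TPM in both groups.

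Of 26 tested Smad and intracellular regulator genes, 6 fell and 4 rose, with a median of 0.08, where 15.5% of all tested genes were lower and 13.2% higher. The share of higher genes was thus near that of all tested genes. Those that rose were Smad3, a receptor-activated Smad, Tgif1, a corepressor of Smads, Smurf1, a ubiquitin ligase, and Strap, a receptor-associated protein, with log2 fold changes of 0.26, 0.37, 0.57 and 0.25. All 4 were named after their values were seen. Smad6 and Smad7 encode the inhibitory Smads. Smad6 fell from 4.42 ± 0.683 to 1.06 ± 0.317 TPM (SD, n = 3), with a log2 fold change of -2.17 (edgeR adjusted p = 0.000714), and Smad7 had one of -0.66 (edgeR adjusted p = 0.0285). Ldlrad4, of a membrane protein that holds back receptor-activated Smads, had a log2 fold change of -0.72. Smurf2, of a ubiquitin ligase for Smads and receptors, was the least stable of the 6 and lost its call in each of the 6 fits without 1 library. The number of higher genes was 0 to 2 whichever of the 6 libraries was left out (0 without miR-322/-503 replicate 2), and Smad7 kept its sign but lost its call in 5 of these 6 fits, all but that without control replicate 1.

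Of 29 tested TGF-beta response genes, 22 fell and 1 rose, with a median log2 fold change of -0.74. This list was written with the fall of matrix genes in these data known, so its direction is no independent evidence. Cnn1, of a smooth muscle calponin, fell from 29.4 ± 0.781 to 1.56 ± 0.388 TPM (SD, n = 3), with a log2 fold change of -4.52 (edgeR adjusted p = 2.62e-06). Postn, of the matricellular protein periostin, had one of -2.96 and Itga11, of a collagen-binding integrin subunit, one of -2.64. Ccn2, a common readout of TGF-beta signaling, had a value of -1.304. The gene that rose was Col1a1, of the type I collagen alpha 1 chain (0.53), while Col1a2, of its partner chain, had a value of -1.19. Ccn2, Col1a1 and Col1a2 were named after their values were seen. Many of the listed genes also encode matrix or smooth muscle proteins that other signals control.

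**Figure D4:**
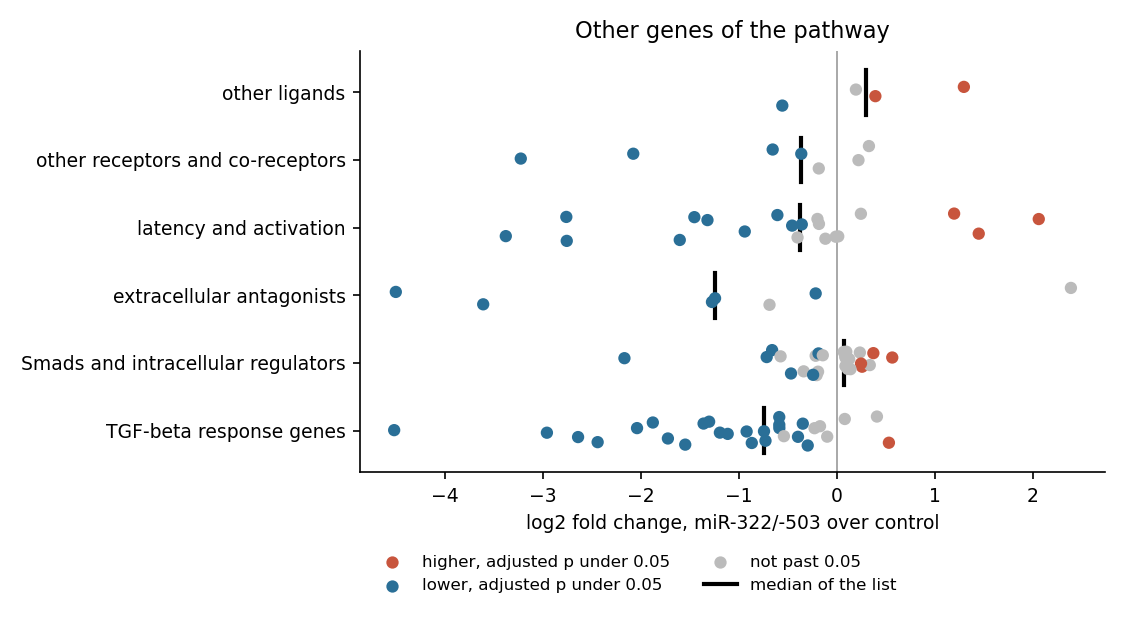
The log2 fold change of every tested gene in 6 pathway lists that hold no member (point, red higher and blue lower at an adjusted p under 0.05 in edgeR, grey not past it), with a black bar at the median of each list. The medians run from -1.24 for extracellular antagonists and -0.74 for TGF-beta response genes to 0.29 for other ligands.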

How the data were processed

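According to the labels and the methods of the study, the authors used Trim Galore for read filtering, HISAT2 for alignment (genome GRCm38) and StringTie for quantification. Versions and annotation are not given in the sources used here. The deposited table holds estimated counts as whole numbers without normalization, and each library's deposited table holds TPM, FPKM and coverage (a signal per base); FPKM and coverage were not used for results, except that coverage gave about 75 bases per count. TPM of a gene identifier listed more than once in a library were summed. Strand of counting is not given.

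Members were matched by gene name and joined by gene identifier. Counts as deposited were tested with edgeR 4.0.16 in R 4.3.3 (filterByExpr, TMM, glmQLFit, glmQLFTest, no covariate) over all 18140 genes that passed the filter. The standard error is the log2 fold change divided by the square root of F. CPM are scaled to TMM library sizes. The computation was tested on simulated counts. The members and the lists were chosen with earlier results of these data known. Beyond the members, genes named are the 3 of each list with the largest absolute log2 fold change among those past 0.05 without overlap and with at least 1 TPM in the higher group, and the 2 genes nearest in pattern to each member past the cut-offs of the study. Some genes that meet these rules are not reported here. Acvr2a, Bambi, Bgn, Dcn, Smurf2, Wfikkn2, the genes named in sensitivity results and the cell type markers given by name were chosen after their values were seen. Seed matches were searched in GENCODE M21 (regions of at least 50 bases). Replicates differed by more than counting noise (chi-square per degree of freedom 13.5 to 19.5 on read pairs).

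Over 13539 genes with at least 40 counts in every library, deviations from the group mean correlated between libraries of the same replicate number. The values were 0.247, 0.148 and 0.166, above 0.1 in each. Over all 18140 tested genes they were 0.131, 0.0687 and 0.0451. The numbers were taken as a possible pairing, which was used only in the replicate block. All other tests, standard errors and intervals treated the libraries as unpaired. Alternatives were DESeq2 1.42.0, other size factors and filters, counts per read pair, limma 3.58.1 on log2(TPM + 1) and log2(TPM + 0.1), the replicate block and leaving out each library.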

Additional observations from a re-analysis of the deposited data

How the results depend on the processing

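The falls of Fst, Tgfb3, Inhba and Ltbp1 kept their direction and an adjusted p-value under 0.05 in every alternative, with log2 fold changes of -2.50 to -2.34, -1.28 to -1.20, -1.03 to -0.88 and -0.57 to -0.48. With limma on log2(TPM + 1) and on log2(TPM + 0.1), Tgfbr1 was not past the threshold (0.246 and 0.27), so that 0 members were higher, only 1 gene of the Smad list was higher, and Tgfbr3 changed sign (0.0528 and 0.0612), and the cause was not tested. Tgfbr2 changed sign with library totals alone (0.0223), which moved the median of all genes to 0.04. Over the fits that each left out 1 library, Tgfb1 lay between -0.214 and -0.05, Tgfb2 between 0.093 and 0.284, Tgfbr1 between 0.265 and 0.342, Tgfbr2 between -0.0806 and 0.0266, Tgfbr3 between -0.213 and -0.0898 and Acvr2b between -0.138 and 0.537. In these fits 0 to 1 members were higher, 0 to 1 genes of the other ligands were lower (Inha, or Gdf1 in 1 fit), 0 to 1 genes each of the other receptors and of the antagonists were higher and 0 to 2 genes of the Smad list were higher. DESeq2 and library totals alone each called 1 other receptor gene higher. The replicate block changed no call of a member. It made 2 TGF-beta response genes higher instead of 1 (Nox4, adjusted p = 0.0385 in edgeR, was added), made Itgb1 and Nedd4l higher and lost the call of Smurf2, which DESeq2, RLE size factors, library totals alone, both limma fits and testing without a filter lost as well. Acvr2b had the fewest counts and the widest interval of the members, and it was not tested on the scale of read pairs.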
